A study of Mus musculus with 4 samples.

Results

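The 10 genes described here, Bmp1 to Bmp7, Bmp8a, Gdf6 and Gdf10, encode bone morphogenetic proteins (BMPs) and growth and differentiation factors (GDFs) of the skeleton. They were found by exact gene name among 55228 genes in a table of RNA-seq read counts, and all 10 had reads in every library. The study took cartilage cells from the ribs of E17.5 embryos of the C57BL/6 mouse strain, with 2 wild-type (WT) libraries and 2 Trim28 knockout (Trim28 KO) libraries. The comparison asks which transcripts differ when the gene for TRIM28, a corepressor that KRAB zinc finger proteins bring to chromatin, is knocked out. The labels give neither the way the knockout was made nor the cells it covers. Nor do they state that each library is a different embryo. The p-values therefore measure only the spread between these samples, which may be technical.

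BMPs and GDFs are secreted dimers of the TGF-beta superfamily. Each is made as a precursor, cut by proprotein convertases and released as a C-terminal domain that binds pairs of type I and type II receptors. For many of these ligands, though not all, the receptors phosphorylate SMAD1, SMAD5 and SMAD9, which enter the nucleus with SMAD4. Secreted antagonists such as noggin and gremlin bind many of the ligands before they reach a receptor. In growing cartilage and its perichondrium these signals drive condensation, proliferation, hypertrophy and bone formation. Bmp1 is the exception by structure: despite its name it encodes an astacin metalloproteinase that trims procollagens and cleaves the antagonist chordin, so 9 of the 10 genes encode growth factors.

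The ends of the coding sequences show how the growth factors group. The last 60 coding bases before the stop codon are given 5′ to 3′ on the coding strand for both members of the BMP3 branch (Bmp3 and Gdf10), for Bmp2 and Bmp4, and for Bmp8a with its neighbouring copy Bmp8b. Capitals mark the 16 bases that are identical in all 10 sequences compared, those of the 9 growth factors and Bmp8b, all from GENCODE M21 transcripts.
Bmp3: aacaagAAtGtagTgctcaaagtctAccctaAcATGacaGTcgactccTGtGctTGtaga
Gdf10: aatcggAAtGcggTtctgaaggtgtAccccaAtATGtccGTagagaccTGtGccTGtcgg
Bmp2: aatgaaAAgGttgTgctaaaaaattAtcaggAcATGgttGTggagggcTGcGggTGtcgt
Bmp4: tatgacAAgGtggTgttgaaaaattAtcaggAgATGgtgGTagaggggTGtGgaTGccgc
Bmp8a: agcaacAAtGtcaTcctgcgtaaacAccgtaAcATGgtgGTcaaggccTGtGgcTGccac
Bmp8b: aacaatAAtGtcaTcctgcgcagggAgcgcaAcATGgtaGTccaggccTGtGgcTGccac
Over the last 300 coding bases, Bmp3 and Gdf10 were identical at 75% of positions, whereas Bmp3 shared 54.7% to 59.7% with each of the other 7 growth factors. Bmp2 and Bmp4 shared 79.7%, and Bmp5, Bmp6 and Bmp7 shared 77.3% to 80.7% among themselves. Bmp8a shared 68.7% with Bmp7 and 72.3% with Bmp8b, and Bmp8b shared 74.7% with Bmp7. The Bmp3 end lies at chr5:98879867-98879926 on the plus strand and that of Gdf10 at chr14:33934451-33934510 on the plus strand (GRCm38, coding exon). Those of Bmp2, Bmp4, Bmp8a and Bmp8b lie at chr2:133561653-133561712 (plus), chr14:46383862-46383921 (minus), chr4:123313270-123313329 (minus) and chr4:123124475-123124534 (plus).

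Total counts ran from 18616896 to 20082123 per library. Levels are given as CPM, the count of a gene relative to the library total, scaled with TMM factors (trimmed mean of M-values). Genes with an adjusted p under 0.05 in edgeR's quasi-likelihood test, run over 16639 genes, are called higher or lower. Trim28 stood at 225 and 186 CPM in WT and at 51.1 and 54.5 CPM in Trim28 KO, in the direction its label gives. The libraries carried the markers of the labelled cells: Col2a1, the main cartilage collagen, stood between 55512 and 79631 CPM, and the log2 fold changes of 14 chondrocyte markers ran from -0.45 to 0.55. Markers of other cells differed between the genotypes. Called lower in Trim28 KO were 9 of 11 osteoblast, 7 of 10 hypertrophic chondrocyte and 8 of 13 perichondrium and fibroblast markers. So were 8 of 8 tested osteoclast and 6 of 6 tested red cell markers, and 6 of 10 macrophage markers were called higher. Over all genes tested, 8.77% were called lower and 8.64% higher.

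Of the 10 genes, 9 passed the filter on low counts and were tested. Of these, 4 were called: Gdf10 rose in Trim28 KO, and Bmp3, Bmp4 and Bmp8a fell. Bmp1, Bmp2, Bmp5, Bmp6 and Bmp7 were not called, and Gdf6 was too low to test. Of all genes tested, 17.4% were called, 8.64% higher and 8.77% lower. The 4 called genes also changed at least 2-fold, and 9.41% of all genes tested were both called and changed at least 2-fold. The median log2 fold change of the 9 genes was -0.26, against -0.02 over all genes tested. The libraries of the genotypes did not overlap for 5 of the 9 genes, beside 58% of all genes tested.

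**Figure D1:**
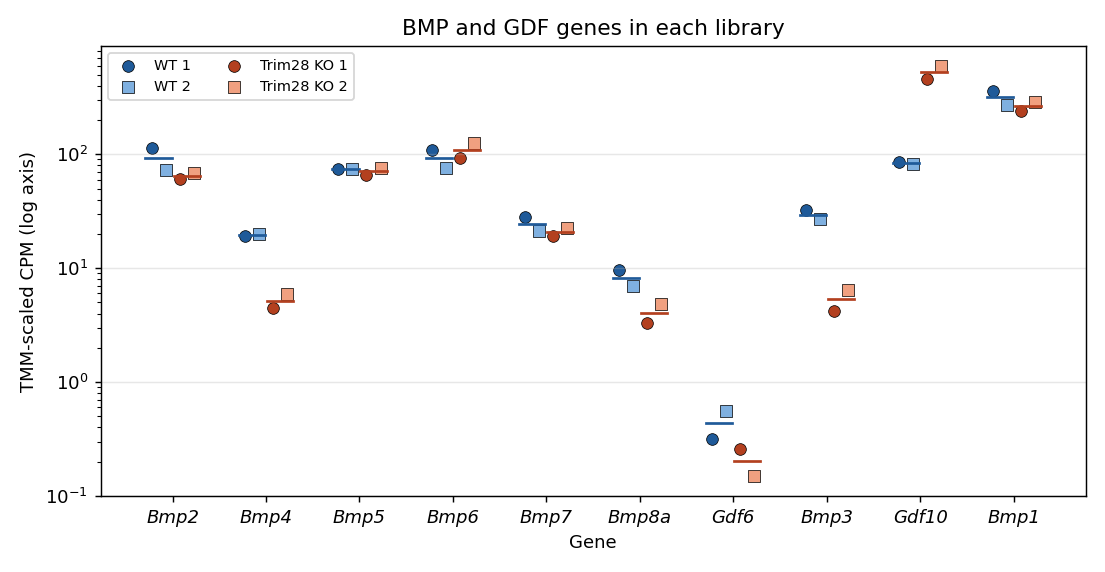
TMM-scaled CPM (log axis) of the 10 genes in the 4 libraries. Points are libraries and short lines are the mean of each genotype (n = 2). Gdf10 stands at 82.1 to 85.1 CPM in WT and at 460 to 591 CPM in Trim28 KO, and Bmp3 and Bmp4 lie lower in both Trim28 KO libraries than in both WT libraries.

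The BMP3 branch held the largest rise and the largest fall among the 9 tested genes. Gdf10, also known as BMP3b, encodes a ligand related to BMP3 that is expressed in skeletal and neural tissue. It had 85.1 and 82.1 CPM in WT 1 and WT 2, and 460 and 591 CPM in Trim28 KO 1 and Trim28 KO 2. Both Trim28 KO libraries lay far above both WT libraries, which differed little from each other. The rise was 6.29-fold (95% interval of 4.58 to 8.62), or 2.65 ± 0.22 on the log2 scale (SE, n = 2 libraries of each genotype), with an adjusted p of 7.03e-09 in edgeR's quasi-likelihood test. Including Gdf10, 184 genes, 1.11% of those tested, were called with a change of this size or larger. In GRCm38, Gdf10 spans positions 33923587 to 33937983 of chromosome 14 (plus strand).

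Bmp3, an abundant BMP of bone matrix that is known to oppose other BMPs, went the other way. It had 32.1 and 26.9 CPM in WT and 4.22 and 6.42 CPM in Trim28 KO. The lower WT library was still well above the higher Trim28 KO library. The fall was 5.54-fold (log2 fold change of -2.47 ± 0.23, 95% interval of -2.94 to -1.99, adjusted p = 4.22e-08 in edgeR's quasi-likelihood test). Bmp3 spans positions 98854415 to 98884396 of chromosome 5 (plus strand). Per kb of exon, Gdf10 was 3.76 and 4.33 times as high as Bmp3 in the WT libraries and 155 and 131 times as high in Trim28 KO 1 and Trim28 KO 2. This within-library ratio could not overlap between the genotypes, since Gdf10 was higher and Bmp3 lower in both Trim28 KO libraries, so it adds no separate evidence. With 2 libraries each, an exact two-sided permutation test cannot go below p = 0.333.

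Bmp2 and Bmp4 encode a pair of closely related BMPs, both strong inducers of cartilage and bone. Bmp4 had 19.2 and 20.1 CPM in WT and 4.48 and 5.92 CPM in Trim28 KO. The WT libraries were nearly level, and both Trim28 KO libraries were far below them. Bmp4 fell 3.77-fold (log2 fold change of -1.91 ± 0.22, adjusted p = 1.21e-06 in edgeR's quasi-likelihood test). The gene spans positions 46383520 to 46390669 of chromosome 14 (minus strand) and shares 3.96% of its exonic bases with the gene model Gm15217 on the other strand.

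Bmp2, at 133552159 to 133562885 on chromosome 2 (plus strand), had 113 and 72.6 CPM in WT and 60.5 and 68.0 CPM in Trim28 KO. Both Trim28 KO libraries were lower, but WT 2 stood only slightly above Trim28 KO 2. Its log2 fold change was -0.53 ± 0.21, with a 95% interval of -0.97 to -0.09, and it was not called (adjusted p = 0.0948 in edgeR's quasi-likelihood test). Without WT 2 the value was -0.79 and the gene was called (adjusted p = 0.00454), and without WT 1 it was -0.15 (adjusted p = 0.709). Per kb of exon, the level of Bmp2 was 3.72 and 2.29 times that of Bmp4 in WT and 8.54 and 7.26 times in Trim28 KO. The ratio was higher in both Trim28 KO libraries, and the exact permutation test is again limited to p = 0.333.

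Bmp5, Bmp6, Bmp7 and Bmp8a belong to the BMP7 branch. Bmp8a, a ligand known for roles in the germ line and in skeletal tissue, had 9.56 and 6.97 CPM in WT and 3.30 and 4.82 CPM in Trim28 KO. The genotypes did not overlap, but the spread within each was wide, 1.37-fold in WT and 1.46-fold in Trim28 KO. The fall was 2.03-fold, at -1.02 ± 0.27 on the log2 scale, with an adjusted p of 0.0104 in edgeR's quasi-likelihood test. The call was lost without WT 1 (log2 fold change of -0.76, adjusted p = 0.122) and without Trim28 KO 1 (-0.77, adjusted p = 0.180). Bmp8a, at 123312645 to 123343252 on chromosome 4 (minus strand), has a related copy, Bmp8b, on the same chromosome. The longest run of bases shared by their transcripts was 182, and 4.73% of the 100-base windows of the Bmp8a transcript also occurred in Bmp8b. Reads that lie within such windows may be lost from both genes, and Bmp8b had 2 and 3 reads in WT and 0 and 1 in Trim28 KO.

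The other 3 genes of this branch were not called. Bmp6, a BMP of maturing chondrocytes that also controls iron balance through hepcidin, had 109 and 75.8 CPM in WT and 93.4 and 124 CPM in Trim28 KO. The libraries of the genotypes were interleaved, and the log2 fold change was 0.24 (95% interval of -0.21 to 0.68). Of its exonic bases, 5.74% are shared with Txndc5 on the other strand. Bmp7, an osteogenic BMP needed for kidney and eye development, had 27.9 and 21.4 CPM in WT and 19.4 and 22.6 CPM in Trim28 KO. These values also overlapped, with a log2 fold change of -0.23 (95% interval of -0.65 to 0.18).

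Bmp5, the gene of the short ear mouse, whose ear and rib cartilage is malformed, had 73.7 and 73.8 CPM in WT and 66.1 and 76.2 CPM in Trim28 KO. The WT libraries lay between those of Trim28 KO, and the log2 fold change of -0.05 had a 95% interval of -0.44 to 0.34. Bmp5 shares 46.7% of its exonic bases with the antisense gene model Gm26903 in GENCODE M21. The counting used no option for strand or overlap, under which featureCounts leaves out reads in shared exons, so the Bmp5 level may be understated in all libraries. Gm26903 itself had 3 to 18 reads. Bmp5 lies on chromosome 9 from 75775364 to 75900310 and Bmp6 on chromosome 13 from 38345107 to 38500302, both on the plus strand, and Bmp7 at 172868012 to 172940321 on chromosome 2 (minus strand).

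Gdf6, a ligand of joint and vertebral patterning close to Gdf5, was barely detected. It had 6 and 11 reads in WT and 5 and 3 in Trim28 KO, where a count of 3, the floor for detection, corresponded to 0.151 to 0.159 CPM. The genotypes did not overlap, but a difference was not detectable at this depth: fitted with no filter on low counts, its log2 fold change was -1.06 with a 95% interval of -2.58 to 0.47 (adjusted p = 0.531 in edgeR's quasi-likelihood test). Gdf6 is at 9844372 to 9862345 on chromosome 4 (plus strand).

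Bmp1, the procollagen proteinase, was the highest of the 10 genes per kb in WT. It had 361 and 271 CPM in WT and 242 and 286 CPM in Trim28 KO. WT 2 lay between the Trim28 KO libraries, and the log2 fold change was -0.26 (95% interval of -0.70 to 0.18, not called). Bmp1 is at 70474558 to 70520234 on chromosome 14 (minus strand).

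**Figure D2:**
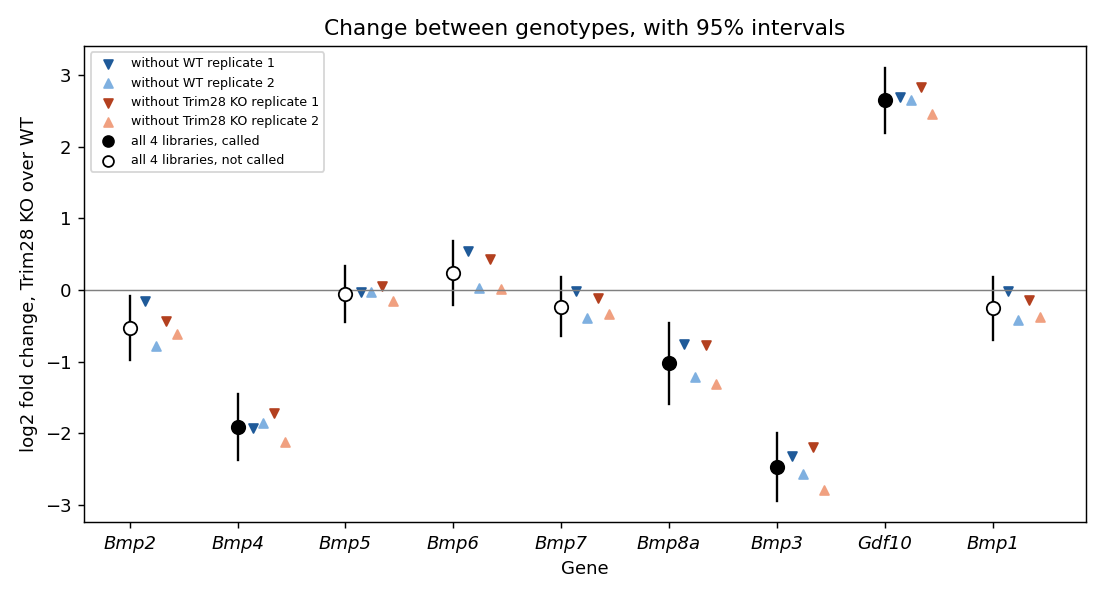
Log2 fold change of Trim28 KO over WT for the 9 tested genes, with 95% intervals from all 4 libraries (circles, filled where called) and the value with each library left out (triangles). Gdf10 lies at 2.65, Bmp3 at -2.47 and Bmp4 at -1.91, and leaving out any single library kept them called, whereas Bmp2 ranged from -0.79 to -0.15.

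Levels of different genes were compared as TMM-scaled CPM per kb of summed exon length. The level of Bmp5, which shares 46.7% of its exonic bases with Gm26903, may be understated, so its place in the order is uncertain. In WT the order was Bmp1, Bmp2, Bmp6, Bmp5, Gdf10, Bmp4, Bmp7, Bmp3, Bmp8a and Gdf6. Bmp1 (30.5 to 40.7 CPM per kb) overlapped with Bmp2 (20.4 to 31.8), Bmp2 with Bmp6 (19.4 to 28.0), and Bmp3 (3.64 to 4.34) with Bmp8a (2.90 to 3.97). The other neighbours in the order did not overlap between the 2 WT libraries. Gdf10 came after Bmp5 in WT, at 15.8 to 16.3 CPM per kb.

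In Trim28 KO, Gdf10 came first at 88.3 to 113 CPM per kb, clear of Bmp1 at 27.3 to 32.2. Bmp6, Bmp2 and Bmp5 followed, then Bmp7, Bmp4, Bmp8a, Bmp3 and Gdf6. Bmp1 overlapped with Bmp6 (23.9 to 31.9), Bmp2 (17.0 to 19.1) with Bmp5 (16.4 to 18.9), and Bmp4 (1.99 to 2.63) with Bmp8a (1.37 to 2.003). Bmp3 stood below Bmp8a and Bmp4 below Bmp7, the reverse of the order of their WT means.

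Summed over the 9 growth factor genes, the level was 118 and 94.9 CPM per kb in WT and 154 and 195 CPM per kb in Trim28 KO. Gdf10 made up 13.8% and 16.6% of this sum in WT and 57.1% and 58.3% in Trim28 KO. Without Gdf10 the sums were 102 and 79.1 in WT and 66.2 and 81.1 in Trim28 KO, and these overlapped. As counted, Bmp2 had the largest share in WT, at 26.9% and 21.5%, and made up 11.02% and 9.83% in Trim28 KO. The share of Bmp5 may be understated, so its rank against Bmp2 is uncertain. Bmp3 went from 3.67% and 3.84% to 0.370% and 0.446%, and Bmp4 from 7.21% and 9.40% to 1.29% and 1.35%. A share falls also when another gene of the sum rises.

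**Figure D3:**
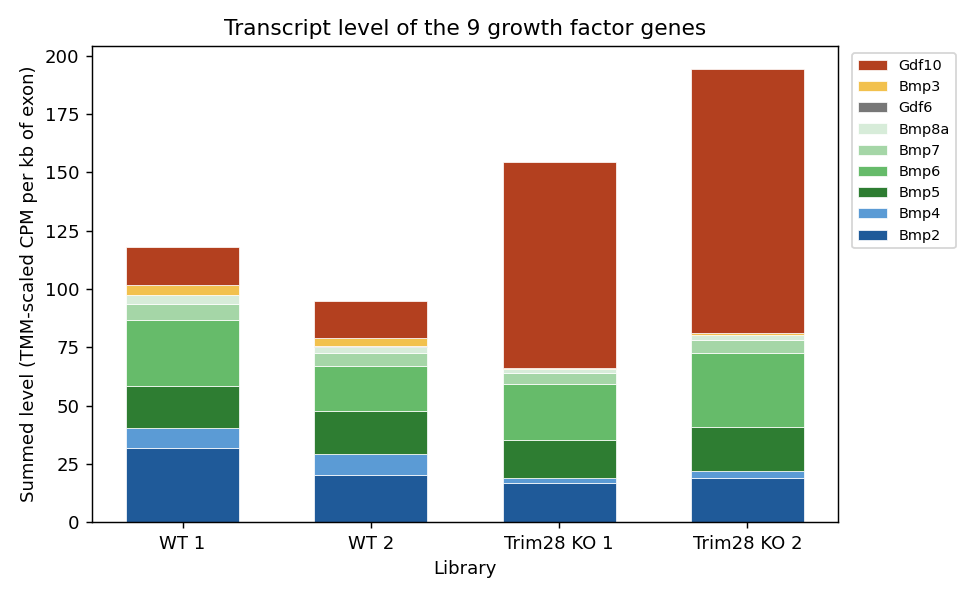
Level of the 9 growth factor genes in each library, as stacked TMM-scaled CPM per kb of exon. Bars sum to 118 and 94.9 in WT and to 154 and 195 in Trim28 KO, where Gdf10 makes up 57.1% and 58.3% of the bar.

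Several lists of cell type markers also differed between the genotypes. Counts of called markers stand beside 8.77% lower and 8.64% higher among all genes tested. The summed level of the osteoblast list was 22382 to 38602 CPM in WT and 8545 to 12355 CPM in Trim28 KO, and that of the hypertrophic list was 7476 to 8161 and 3219 to 4141 CPM. The lists share Alpl and Ibsp, and no marker of either was at 0. Col1a1 made up most of the osteoblast sum, at 37380 and 21087 CPM in WT and 8258 and 11921 CPM in Trim28 KO. The perichondrium and fibroblast list, which shares Col1a1 with the osteoblast list, summed to 37499 to 54771 CPM in WT and 16711 to 21445 CPM in Trim28 KO. Col1a1 was also the highest gene of this list, so its sum and the osteoblast sum are not separate observations. Osteoclast markers summed to 921 to 1074 CPM and 242 to 249 CPM, and those of red cells to 255 to 349 CPM and 75.5 to 81.7 CPM. Schwann cell and neuronal markers summed to 36.4 to 45.8 CPM and 16.8 to 19.1 CPM, with 4 of 6 tested members lower and Snap25 at 0. Macrophage markers summed to 136 to 141 CPM in WT and to 446 and 269 CPM in Trim28 KO 1 and Trim28 KO 2. Gdf10 had 460 and 591 CPM in these 2 Trim28 KO libraries, which are too few to relate the levels. Chondrocyte markers summed to 101423 to 134795 CPM and 98497 to 126221 CPM, which overlapped. Joint markers, of which 3 of 8 were higher and 3 lower, summed to 185 to 194 CPM in WT and 236 to 263 CPM in Trim28 KO. Endothelial markers, of which 1 of 9 was lower and 8 of 9 had a log2 fold change below 0, summed to 491 to 582 CPM and 413 to 461 CPM, and neither of these sums overlapped between the genotypes. Skeletal muscle markers, 1 higher and 1 lower of 9, summed to 595 to 774 CPM and 428 to 1137 CPM, which overlapped. In bulk samples fewer cells of a type and less RNA per cell cannot be told apart, and the part of these cell types in the changes of Bmp3, Bmp4, Bmp8a and Gdf10 was not tested.

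The genes whose profile over the 4 libraries was most like that of Gdf10, by Euclidean distance between centred log2 CPM among 10762 genes averaging 5 CPM or more, were Dusp8 (distance of 0.27), Slc1a4 (0.28) and Homer2 (0.30). Dusp8, a MAP kinase phosphatase, had 14.5 and 11.9 CPM in WT and 86.8 and 96.2 CPM in Trim28 KO, and Slc1a4, a neutral amino acid transporter, had 40.4 and 44.4 and 215 and 243 CPM. Most like Bmp3 were Ucma (0.07), Serpini1 (0.11) and Ninj2 (0.14). Ucma, a matrix protein of young chondrocytes, had 5411 and 4580 CPM in WT and 756 and 1066 CPM in Trim28 KO. With 4 libraries in 2 groups, genes with a change of like size tend to have a like profile.

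The windows upstream of the starts are shown for the called genes with an entry in the RefSeq promoter table (GRCm38.p6), which matched 5 of the 10 genes. Each runs 5′ to 3′ over the 250 bases before the start: Gdf10 at chr14:33923337-33923586 on the plus strand, Bmp4 at chr14:46390670-46390919 on the minus strand, and Bmp8a at chr4:123343253-123343502 on the minus strand. Capitals mark matches, on either strand, to GGGCGG, the core of the GC box bound by SP factors.
Gdf10: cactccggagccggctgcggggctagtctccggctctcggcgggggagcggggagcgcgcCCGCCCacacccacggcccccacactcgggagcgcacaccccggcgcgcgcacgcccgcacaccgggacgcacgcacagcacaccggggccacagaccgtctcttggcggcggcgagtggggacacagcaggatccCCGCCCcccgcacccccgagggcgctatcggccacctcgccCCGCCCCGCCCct
Bmp4: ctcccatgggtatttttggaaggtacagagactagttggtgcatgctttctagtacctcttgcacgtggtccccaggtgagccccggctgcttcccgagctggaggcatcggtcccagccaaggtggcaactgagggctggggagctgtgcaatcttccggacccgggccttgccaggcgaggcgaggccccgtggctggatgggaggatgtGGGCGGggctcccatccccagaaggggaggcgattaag
Bmp8a: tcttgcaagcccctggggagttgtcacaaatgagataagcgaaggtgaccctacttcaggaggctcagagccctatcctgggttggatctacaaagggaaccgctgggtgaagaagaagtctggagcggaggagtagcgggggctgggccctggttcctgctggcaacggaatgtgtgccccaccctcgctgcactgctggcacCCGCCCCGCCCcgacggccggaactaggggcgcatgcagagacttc
GGGCGG occurred 4 times upstream of Gdf10, 2 times upstream of Bmp8a and 1 time upstream of Bmp4, with the Bmp8a pair and a Gdf10 pair overlapping by a base, and in 32.7% of the 32851 windows of this length in the table. The window of Gdf10 was 78.8% G and C and held 35 CpG, more than 97% of all windows. Those of Bmp4 and Bmp8a held 11 and 12 CpG, where the median window holds 6. TGCCGC, the core that the TRIM28 partner ZFP57 reads when methylated, and TGTGGT, a RUNX core, matched none of the 3 windows on either strand, and matched 8.68% and 14% of all windows. The table held no entry for Bmp3.

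Neighbours of the called genes were counted within 500 kb of their starts. In either direction, 30% were called near Gdf10, 0% near Bmp3, 18.2% near Bmp4 and 30.8% near Bmp8a, beside 17.4% of all genes tested. With 3 to 13 tested neighbours for each, 1 gene moves these shares widely. Near Gdf10, 2 of 10 tested genes were called higher and 1 lower, with Sncg (log2 fold change of 1.19) and Anxa8 (0.68) rising. Bmp3 had 3 tested neighbours, with log2 fold changes from -0.17 to 0.14 and no call. Near Bmp4, 2 of 11 were lower, the gene models Gm15222 (-2.51), which starts 3.15 kb from the Bmp4 start, and Gm34934 (-1.02). Strand was not used in counting, so reads of adjoining transcripts of unlike strand could not be separated by strand. Near Bmp8a, 2 of 13 were lower, Heyl (-1.18) and Rhbdl2 (-1.43), and 2 higher. Of the neighbours named, Heyl alone kept its call under all 14 alternatives. Without Trim28 KO 1, Sncg (adjusted p = 0.102), Anxa8 (0.115), Rhbdl2 (0.0724) and Gm34934 (0.210) were not called in edgeR's quasi-likelihood test. Without Trim28 KO 2, Gm15222 (0.165), Anxa8 (0.0553) and Gm34934 (0.0635) were not, Sncg was lost without WT 2 (0.0539) and Gm34934 without WT 1 (0.214). DESeq2 gave adjusted p-values of 0.0584 for Gm15222 and 0.0767 for Gm34934.

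The rest of the pathway was read from 9 gene lists, in the order of the steps of signalling. The lists were chosen with earlier results of these data known, so their counts only describe the listed genes. Among the other ligands of the BMP, GDF and activin branches, 10 of 18 were tested, of which 3 rose and 1 fell. The share called in either direction over all genes tested was 17.4%. Gdf5, the ligand of the joint interzone, had 10.2 and 10.4 CPM in WT and 22.6 and 30.5 CPM in Trim28 KO (log2 fold change of 1.37 ± 0.21). Gdf15, a stress-induced ligand (1.68 ± 0.30), and Mstn, which encodes myostatin, the brake on muscle growth (2.11 ± 0.42), also rose, and Inha, the inhibin alpha subunit, fell (-1.08 ± 0.24). All 4 had adjusted p-values of 0.00245 or less in edgeR's quasi-likelihood test. Bmp10 and Gdf1 had no read in any library.

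Of 5 proprotein convertases, which cut the precursors, 0 were called by edgeR, DESeq2 or limma-voom, and 2 had an unadjusted p under 0.05 by edgeR. Pcsk6 had 250 and 304 CPM in WT and 357 and 444 CPM in Trim28 KO (log2 fold change of 0.53, adjusted p = 0.0859 in edgeR's quasi-likelihood test), and Pcsk4 had 3.08 and 2.32 CPM in WT and 1.49 and 1.46 CPM in Trim28 KO (-0.87, adjusted p = 0.116). Among 3 tested relatives and enhancers of BMP1, Tll1, which encodes tolloid-like 1, fell from 6.74 and 7.93 CPM to 0.978 and 0.853 CPM, and Pcolce, the procollagen C-proteinase enhancer, fell from 535 and 455 to 168 and 253 CPM. Their log2 fold changes were -2.99 ± 0.33 and -1.23 ± 0.22. Of 16 tested substrates of BMP1-type proteinases, 3 fell: Col1a1 (-1.53), Col3a1 (-1.19) and Dmp1 (-1.76), whose products are collagens of bone and soft tissue and a bone matrix phosphoprotein. This share is near the 17.4% of all genes tested. All 3 are also in the osteoblast list (Col1a1, Dmp1) or the perichondrium and fibroblast list (Col1a1, Col3a1). Of these lists, 9 of 11 and 8 of 13 markers were lower in Trim28 KO. Without Trim28 KO 1, Col1a1 (adjusted p = 0.0507) and Col3a1 (0.0764) were not called in edgeR's quasi-likelihood test.

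Of the tested receptors 2 of 8 were called, and of the SMADs and their regulators 2 of 12, beside 17.4% of all genes tested. Of the 8 tested receptors, the type I receptor gene Bmpr1b rose (from 9.08 and 11.9 CPM to 16.2 and 18.9 CPM, log2 fold change of 0.74) and the type II receptor gene Acvr2b fell (-1.17). Both calls were lost without WT 1 (adjusted p = 0.113 and 0.184), without Trim28 KO 1 (0.0565 and 0.168) and without Trim28 KO 2 (0.156 and 0.0827), in edgeR's quasi-likelihood test, and DESeq2 did not call Acvr2b (0.0770). Bmpr1a and Bmpr2, the widely expressed receptors, had log2 fold changes of -0.13 and -0.23 and were not called (named after their values were seen). Of 7 co-receptors and related genes, Bambi, a decoy receptor (0.78), and Rgma, a BMP co-receptor (0.74), rose, and Tgfbr3, which encodes betaglycan, fell (-1.18 ± 0.20). Without Trim28 KO 1, Bambi (adjusted p = 0.210) and Rgma (0.171) were not called, and Rgma was also lost without WT 2 (0.179) and Trim28 KO 2 (0.107). Of 12 SMADs and their regulators, Smad9 rose (0.71) and Smurf2, a ubiquitin ligase, fell (-0.64). Without Trim28 KO 1 (adjusted p = 0.0764 and 0.239) or Trim28 KO 2 (0.0994 and 0.0835) neither was called, nor was Smurf2 without WT 1 (0.193).

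Of 19 tested secreted antagonists and modulators, 8 rose and 4 fell, with a median of 0.35. Beside this, 8.64% of all genes tested were called higher and 8.77% lower. Because the list was chosen with earlier results of these data known, the counts are not a test for an excess. Grem1, which encodes gremlin, rose from 29.8 and 33.8 CPM to 540 and 422 CPM, and Nog, which encodes noggin, from 42.1 and 29.3 CPM to 79.3 and 87.3 CPM. Chrdl2, a chordin-like protein, rose by 4.52 ± 0.26 and Vwc2, a chordin-domain protein also called brorin, by 1.92 ± 0.21 on the log2 scale. Fewer of these genes were called higher without Trim28 KO 1 or without Trim28 KO 2, as was the case over all genes tested.

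Of 19 genes listed as targets of BMP-activated SMADs, 6 rose and 4 fell, with a median of 0.11. Over all genes tested, 8.64% were called higher and 8.77% lower. This list too was chosen with earlier results known, so its counts are not a test for an excess. Grem1, Nog, Atoh8 (1.14 ± 0.19), Bambi, Smad9 and Id4 rose, and Runx2 (-1.22 ± 0.19), Sp7 (-1.32 ± 0.21), Dlx3 and Ihh fell. Grem1 and Nog are also counted among the antagonists, Bambi among the co-receptors and Smad9 among the SMADs. Runx2, Sp7 and Ihh are also markers of osteoblasts or hypertrophic chondrocytes, as listed above. Id1, a direct and rapid BMP target, had 126 and 112 CPM in WT and 119 and 125 CPM in Trim28 KO, which overlapped (log2 fold change of 0.03 ± 0.19). Id1 was not called, nor were Id2, Id3, Smad6 and Smad7, with log2 fold changes of 0.33, 0.14, -0.07 and -0.38. Id1 to Id4, Smad6, Smad7, Dlx3 and Ihh were named after their values were seen. Fewer of the targets were called higher without Trim28 KO 1, as was the case over all genes tested.

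**Figure D4:**
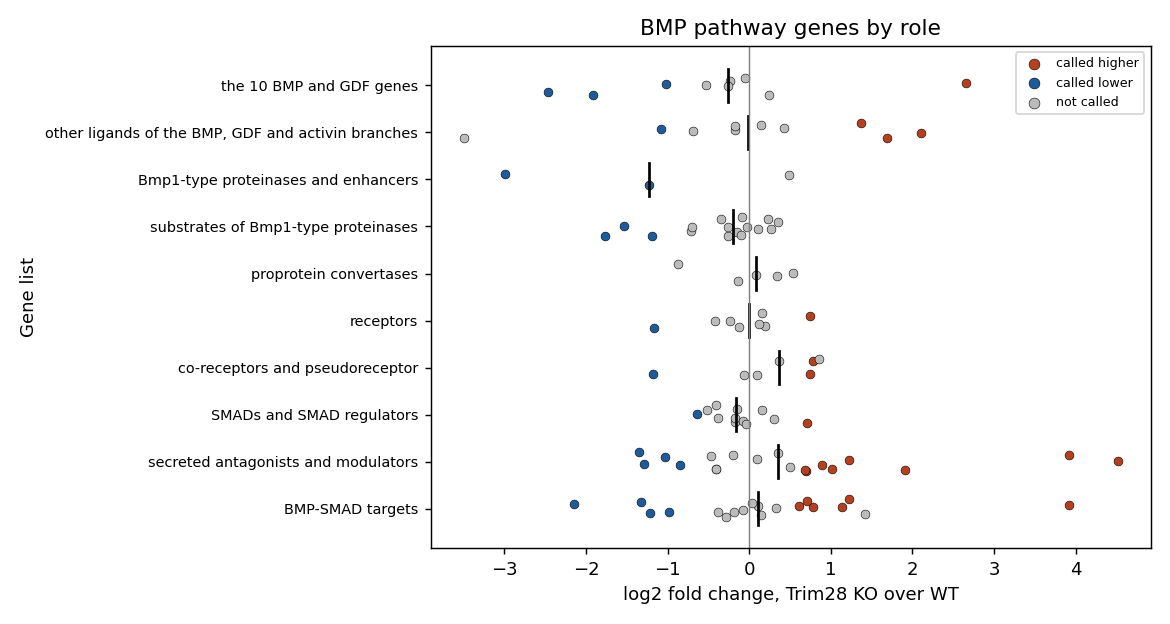
Log2 fold change of Trim28 KO over WT for each tested gene of the BMP pathway lists (points, coloured by call) with the median of each list (black line). The antagonists reach 4.52 (Chrdl2) and 3.92 (Grem1), and 1 gene in each direction was called among the receptors and among the SMADs.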

How the data were processed

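Total RNA of 4 libraries was sequenced. The authors deposited unnormalized counts for each gene. Per the file headers, featureCounts 1.6.4 counted fragments of paired-end reads over exons of GENCODE M23 on mm10, summed by gene name, with no option for strand, multi-mapping or overlapping reads. The deposited table also gives gene length. Per the submitters' processing notes, edgeR was used. The aligner is not given in the sources used here.

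Genes were kept by filterByExpr, scaled by TMM and compared by the quasi-likelihood test of edgeR 4.0.16 (robust, no covariate; R 4.3.3 with limma 3.58.1) with Benjamini-Hochberg adjustment over 16639 genes. The standard error is the log2 fold change over the square root of F. Tested on simulated counts of 16317 genes, the fit recovered 50% of the 2-fold changes and 91.9% of the 4-fold ones, with 10 false among 150 calls. In the simulation, 98 genes were changed 2-fold and 99 genes 4-fold, whereas 2898 genes were called in the data. The adjusted p depends on this share, so recovery in the data may differ. Floors at 3 counts do not cover library preparation, and the intervals cover only the spread between these libraries.

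Members and lists were chosen with earlier results of these data known. Named were all 10 genes, Trim28, up to 4 called genes of each pathway list by smallest p (or 2 where none was called), up to 2 called neighbours, and the 3 nearest profiles of the largest rise and fall. Positions and coding sequences came from GENCODE M21 (GRCm38), which held 98.8% of tested names. Alternatives were RLE and upper-quartile factors, library size alone, 2 other filters, limma-voom, DESeq2 1.42.0, the exact test of edgeR, a replicate block and leaving out each library. Settings for pathway, neighbouring and similar genes were added after the data were seen.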

Additional observations from a re-analysis of the deposited data

How the results depend on the processing

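Gdf10, Bmp3 and Bmp4 kept their direction and their call under all 14 alternatives run, with log2 fold changes of 2.47 to 2.83, -2.80 to -2.19 and -2.12 to -1.72. Bmp8a kept its direction under all 14 and its call under 12. Bmp5, not called under any, changed sign with library size alone (0.011) and without Trim28 KO 1 (0.054), with a range of -0.15 to 0.054 over the fits that leave out 1 library. Leaving out 1 library gave 1 ligand higher in each case and 2 to 4 lower. Over all genes it gave 702 to 1442 higher and 572 to 1406 lower: 702 and 572 without Trim28 KO 1, and 906 and 807 without Trim28 KO 2, with 1 fewer library in each of these fits, where the lone library of a genotype is assumed to vary like the others. With the replicate block, 1477 genes were higher and 1444 lower, and 1 and 3 ligands. Same-numbered libraries had a correlation of deviations of -0.11 and share only a number. A crossed replicate block, added after this was seen, gave 1593 and 1747 genes. Of the other scalings, library size alone moved the median of all genes the most, by 0.065 on the log2 scale. In the simulation with 2 libraries of each genotype, where far fewer genes changed than were called in the data, 50% of 2-fold changes were recovered.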
